A study of Mus musculus with 6 samples.

Results

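The autophagy and mitochondrial clearance genes described here are Bnip3l, Ulk1, Map1lc3b, Gabarap, Gabarapl1, Gabarapl2, Atg4a, Atg7 and Wipi1. They were chosen by gene symbol, as a mitophagy receptor, an initiation kinase, the LC3 and GABARAP family and the genes that process, conjugate or recruit it, and all 9 genes were found on the array, as 13 of its 45281 probes. RNA came from Ter119-positive bone marrow cells, an erythroid fraction, of C57BL/6 mice aged 4 months, with 1 Illumina bead array for each of 6 mice. The wild type group held 3 mice and the mDia2 knockout group held 3 mice with a conditional knockout; the promoter that drives the deletion and any allele carried by the wild type mice are not given in the sources used here. mDia2 is a formin, an actin filament nucleating protein, encoded by Diaph3.

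Maturing red cells discard their mitochondria and other organelles after the nucleus has been expelled, and autophagy is a main route of that clearance. A double membrane, the phagophore, forms under the control of the ULK1 kinase and grows around its cargo. Small ubiquitin-like proteins of the LC3 and GABARAP families are trimmed by ATG4 proteases, activated by the E1-like enzyme ATG7 and attached to lipid of the growing membrane. BNIP3L, also called NIX, sits in the outer mitochondrial membrane, binds these proteins and so delivers mitochondria to the phagophore, and mouse reticulocytes without it retain mitochondria.

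Stretches of 250 bases upstream of the annotated transcription start are shown for 3 genes, as RefSeq gives them for build GRCm38.p6. Map1lc3b is shown because it had the largest change of the group, Wipi1 because its 3 probes gave different changes, and Ulk1 because, on the log2 scale, its brighter probe spread most among the knockout mice of the 13 probes. Capitals mark the GC box letters GGGCGG, or CCGCCC where the motif lies on the other strand. The sequences run 5′ to 3′ on the strand of the gene, from chr8:121590188-121590437 on the plus strand for Map1lc3b, chr11:109611390-109611639 on the minus strand for Wipi1 and chr5:110810082-110810331 on the minus strand for Ulk1.
Map1lc3b: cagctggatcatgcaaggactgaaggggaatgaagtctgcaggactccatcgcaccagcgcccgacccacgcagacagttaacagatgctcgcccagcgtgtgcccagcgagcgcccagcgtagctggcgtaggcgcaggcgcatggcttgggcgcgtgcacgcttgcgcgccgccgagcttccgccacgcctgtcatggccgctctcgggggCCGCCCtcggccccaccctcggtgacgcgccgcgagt
Wipi1: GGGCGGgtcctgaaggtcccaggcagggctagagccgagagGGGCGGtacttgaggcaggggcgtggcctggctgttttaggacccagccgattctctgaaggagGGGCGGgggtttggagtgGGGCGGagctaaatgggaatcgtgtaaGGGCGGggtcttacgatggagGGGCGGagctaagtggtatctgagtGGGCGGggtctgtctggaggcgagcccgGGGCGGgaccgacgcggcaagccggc
Ulk1: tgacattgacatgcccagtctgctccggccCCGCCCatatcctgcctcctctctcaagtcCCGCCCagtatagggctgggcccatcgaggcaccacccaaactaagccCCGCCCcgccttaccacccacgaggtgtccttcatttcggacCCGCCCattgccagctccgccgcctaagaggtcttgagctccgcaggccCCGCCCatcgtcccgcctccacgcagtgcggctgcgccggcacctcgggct

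The Wipi1 stretch held 8 GC boxes, the Ulk1 stretch 5 and the Map1lc3b stretch 1, which began 37 bases before the start. Of the 9 promoter entries that RefSeq gave for 8 of the genes, 6 held the GC box, as did 32.7% of all 32851 promoters of this length. The other motifs, searched on both strands in the same window, were the E-box CACGTG, the GATA motif as AGATAA or TGATAA, and the forkhead motif GTAAACA, and none of these occurred in the 3 stretches shown. The E-box was present upstream of Atg7 alone among these genes and in 6.02% of all promoters. AGATAA and TGATAA were present in 1 of the 2 Atg4a entries, and in 9.99% and 7.94% of all promoters. The forkhead motif was in none of the 9 entries and in 3.17% of all promoters. These matches describe letters and not binding.

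The arrays detected between 14815 and 16951 probes each, at a detection p under 0.05, and a probe was tested when at least 3 arrays detected it, which left 15743 probes. The target's brighter probe, Diaph3 listed as Diap3, read lower without passing the test, averaging 993 ± 45.3 signal units (SD, n = 3) in wild type against 467 ± 118 (SD, n = 3) in knockout mice (limma adjusted p = 0.0917). Erythroid markers were present, with 13 of 14 tested, a log2 change from wild type to knockout of 0.08 at the median and a summed signal of 186874 to 203287 in wild type and 205503 to 214570 in knockout mice. The 11 tested neutrophil markers all had lower values in the knockout mice, with a summed signal of 36917 to 52478 in wild type and 14668 to 25945 in knockout mice. None of the 11 passed the test (limma adjusted p from 0.0904 to 0.181). The 10 tested monocyte and macrophage markers summed to 12246 to 32309 and 5109 to 11131. Lyz and Lyz2 made most of that sum, at 18608 and 7482 in wild type replicate 3. Groups were separate with knockout lower for 3 of the 10, beside 23% of all tested probes. Vcam1 read 1812 in knockout replicate 2, above its wild type values of 1320, 1609 and 1774. The 5 B lineage markers summed to 871 to 1064 and 640 to 671, and the 6 megakaryocyte markers to 1539 to 2184 and 1236 to 1299. The 3 T and NK cell markers summed to 384 to 504 and 359 to 386, near background. Of all these markers only the B lineage gene Cd79b passed, at a log2 change of -0.96 (limma adjusted p = 0.00383). The part of these other cells in the results below was not tested, and fewer cells of a type cannot be told apart from less RNA per cell. Signals were also shifted as a whole: the median log2 change over all tested probes was -0.10, and 81.0% of them lay below 0.

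None of the autophagy and mitochondrial clearance probes passed the test between genotypes, yet most had values slightly above the wild type level where most other probes lay below it. In limma 0 of the 12 tested member probes passed at an adjusted p under 0.05, against 0.0889% of all tested probes, and 1 of 12, that of Map1lc3b, was higher at an unadjusted p under 0.05, against 1.28% of all probes. No member probe was lower at that unadjusted p, against 17.6% of all. Of the 12 probes 9 had a log2 change above 0, beside 19% of all tested probes, and 11 lay above the median of all probes. This was not particular to the members. Of the 13 tested erythroid markers 9 also lay above 0, and their median of 0.08 was 0.18 above the median of all. The median change of the 12 probes was 0.04, which is 0.14 above the median of all. It was -0.02 without knockout replicate 1, the mouse with the highest signal for 8 of the 12 probes. Other scalings moved the members and the other probes up together. Under quantile normalization 11 of 12 lay above 0, beside 54.6% of all probes, whose median was then 0.01. Under centring of each array on its tested probes all 12 lay above 0, beside 68.8% of all probes at a median of 0.07. Other settings lowered the count above 0. It was 5 of 12 without knockout replicate 1, beside 16.9% of all probes, and 7 with a term for the series of animal numbers, beside 19.5%. Without both wild type replicate 3 and knockout replicate 2, a pair chosen after the data were seen, it was 6, beside 28.0%. Limma's adjusted p ranged from 0.190 to 0.974 over the 12 probes, and the standard errors from 0.07 to 0.13, so changes of the size seen here were mostly within the error.

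**Figure D1:**
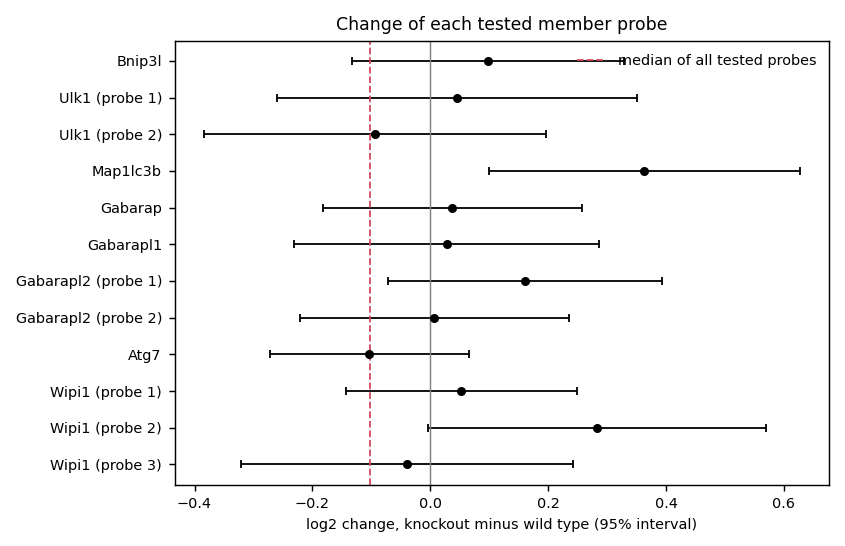
Log2 change, knockout minus wild type, of each of the 12 tested member probes, with its 95% interval from limma over 3 mice per group; the dashed line is the median of all tested probes, at -0.10. The interval of Map1lc3b, from 0.10 to 0.63, is the only one of the 12 that does not include 0.

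Bnip3l, the mitochondrial receptor, was detected on all 6 arrays by its 1 probe. Signals were 10913, 10638 and 8857 in wild type mice against 11175, 11049 and 10194 in knockout mice. The groups overlapped, since the lowest knockout value lay below the wild type values of replicates 1 and 2, and wild type replicate 3 stood below the other mice. Wild type averaged 10136 ± 1116 (SD, n = 3) and knockout 10806 ± 533 (SD, n = 3). This is a log2 change of 0.10, with SE 0.10 and a 95% interval from -0.13 to 0.33 (limma adjusted p = 0.607). The interval leaves room for a level between 0.912 and 1.26 times that of wild type. Without wild type replicate 3 the change was 0.0030, and that mouse also had the highest summed neutrophil (52478) and monocyte (32309) marker signals of the 6. Bnip3l lies on chromosome 14, as does Diaph3.

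Ulk1, the kinase that starts phagophore formation, had 2 probes. Signals of the brighter were 1002, 942 and 943 in wild type mice against 1168, 809 and 1035 in knockout mice. The wild type mice lay within a narrow range, and the knockout mice lay on both sides of it. Wild type averaged 963 ± 34.6 (SD, n = 3) and knockout 1004 ± 181 (SD, n = 3), a log2 change of 0.05 with SE 0.13 and an interval from -0.26 to 0.35 (limma adjusted p = 0.870). The spread of this probe within groups was larger than that of 83.0% of tested probes, and the knockout SD was the larger. The second probe read 638, 669 and 558 in wild type and 676, 500.5 and 580 in knockout mice, again with knockout replicate 1 highest and knockout replicate 2 lowest. Its log2 change was -0.09 (SE 0.12, limma adjusted p = 0.695), of opposite sign to that of the brighter probe, and both intervals included 0.

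**Figure D2:**
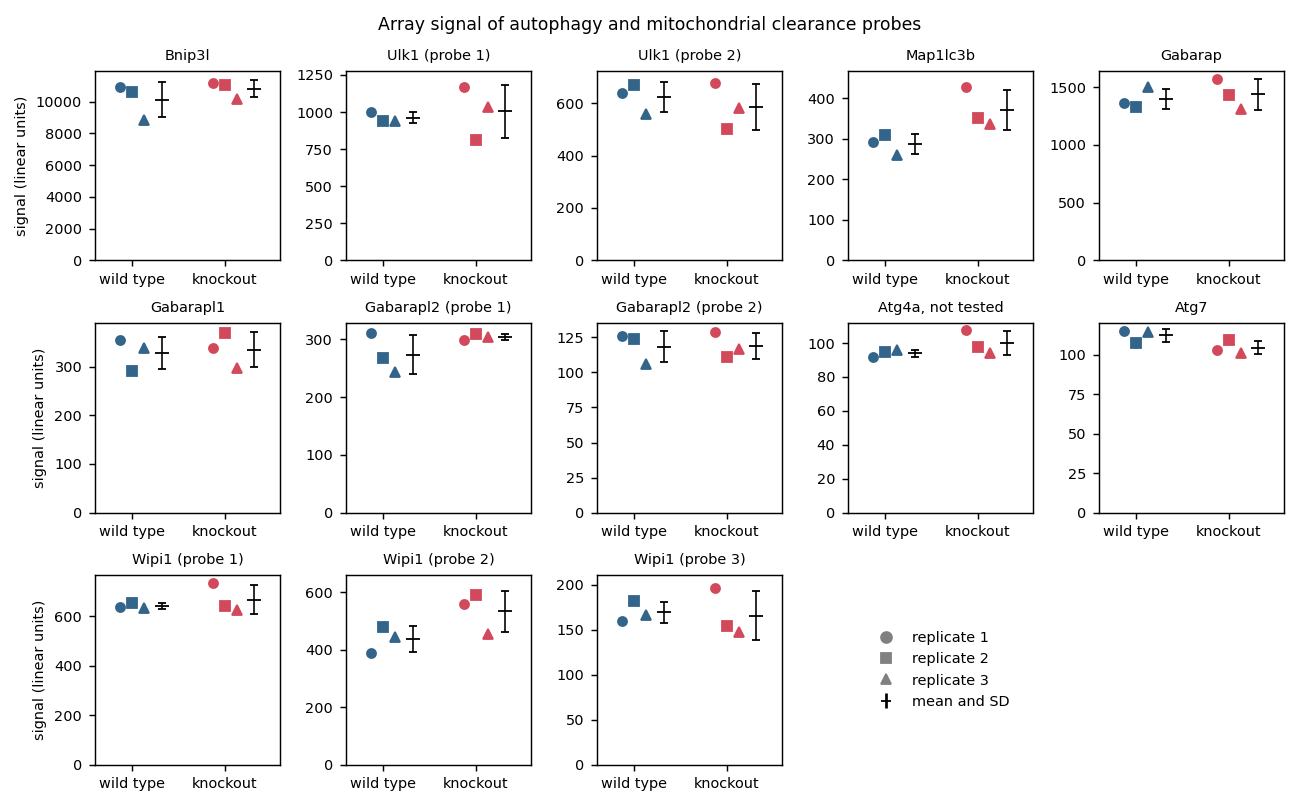
Deposited signal, in linear units, of each of the 13 member probes in the 3 wild type (blue) and 3 knockout (red) mice, with the replicate as the symbol and the mean and SD as the bar beside each group. The 3 knockout values of Map1lc3b, from 335 to 426, lie above its 3 wild type values, from 261 to 309, and the groups overlap for all other probes.

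Map1lc3b encodes LC3B, the protein most used to mark autophagosomes. Signals of its probe were 293, 309 and 261 in wild type mice against 426, 352 and 335 in knockout mice. Each knockout value exceeded each wild type value, which was so for 1 of the 12 tested member probes and for 1.98% of all tested probes. Wild type averaged 288 ± 24.6 (SD, n = 3) and knockout 371 ± 48.6 (SD, n = 3), which is 129% of wild type. On the log2 scale the change was 0.36, with SE 0.11 and an interval from 0.10 to 0.63. The unadjusted limma p was 0.0133 and the adjusted p over all probes 0.190, which does not pass. A two-sided exact permutation test gave p = 0.1, the lowest value this design of 3 mice against 3 can reach. Over the 17 alternative settings the change stayed above 0, from 0.26 without knockout replicate 1 to 0.71 with neqc, and the adjusted p ranged from 0.101 to 0.483.

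The GABARAP family members, relatives of LC3 that act mainly at later steps of autophagosome formation, had small changes. Gabarap read 1363, 1330 and 1500.0 in wild type and 1575, 1428 and 1307 in knockout mice. Both the highest and the lowest of these values were in knockout mice, and the log2 change was 0.04 (SE 0.09, interval -0.18 to 0.26, limma adjusted p = 0.847). Gabarapl1 read 355, 291 and 338 in wild type and 337, 368 and 298 in knockout mice. The groups lay over one another, with a log2 change of 0.03 (SE 0.11, interval -0.23 to 0.29, limma adjusted p = 0.908).

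Gabarapl2 had 2 probes, and the brighter read 311, 267 and 243 in wild type and 298, 310 and 305 in knockout mice. The knockout mice lay close together, with an SD of 5.80 beside 34.4 in wild type, and wild type replicate 1 lay above all of them. The log2 change was 0.16 (SE 0.10, interval -0.07 to 0.39, limma adjusted p = 0.408). The dimmer probe, near background, read from 106 to 126 in wild type and from 111 to 129 in knockout mice, with a log2 change of 0.0071 (SE 0.10, limma adjusted p = 0.974). For Map1lc3b, Gabarap, Gabarapl1 and Gabarapl2 the brightest probe thus had a change above 0, but only the interval of Map1lc3b lay wholly above 0.

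Map1lc3b was also set against the mean of the 3 GABARAP genes on the same array. This log2 ratio is free of a factor common to all probes of an array, but it still depends on background and on other kinds of normalization. It stood at -0.86, -0.60 and -0.93 in wild type and at -0.34, -0.64 and -0.55 in knockout mice. Wild type replicate 2 lay above knockout replicate 2, so the groups overlapped. The mean ratio was -0.80 ± 0.17 (SD, n = 3) and -0.51 ± 0.15 (SD, n = 3), a difference of 0.29. This ratio was chosen after the values were seen, and no test was made of it.

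Of the processing genes, Atg7 and Atg4a were near background. Atg7 read 114.7, 107 and 114.1 in wild type and 103, 109 and 101 in knockout mice. The groups overlapped in 1 mouse each, and the log2 change of -0.10 (SE 0.07, interval -0.27 to 0.07, limma adjusted p = 0.456) lay at the median of all probes. Its spread within groups was smaller than that of most probes, with 8.96% of tested probes below it. Atg4a, a protease of the GABARAP proteins, was undetected in all 3 wild type mice, at 91.5, 94.5 and 95.9, and detected in 2 of 3 knockout mice, which read 108, 97.5 and 94.2. It was therefore the 1 member not tested. No change is given, since the lowest signal of any detected probe on the wild type arrays, 98.2 to 101, is about as high as these readings.

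Wipi1, which binds the lipid made by the autophagy PI3 kinase and marks the early phagophore, had 3 probes with different readings; the differences between them were not tested. The brightest read 639, 655 and 631 in wild type and 735, 642 and 625 in knockout mice, a log2 change of 0.05 (SE 0.08, limma adjusted p = 0.746). The second read 389, 479 and 445 in wild type and 558, 590.3 and 454 in knockout mice. Its knockout values were the higher except that knockout replicate 3 lay below wild type replicate 2, and its log2 change was 0.28 (SE 0.12, interval -0.0038 to 0.57, limma unadjusted p = 0.0524 and adjusted p = 0.270). The third read 160, 182 and 166 in wild type and 197, 154 and 147 in knockout mice, a log2 change of -0.04 (SE 0.12, limma adjusted p = 0.874). Against the brightest probe on the same array, the second stood at a log2 ratio of -0.56 ± 0.14 (SD, n = 3) in wild type against -0.33 ± 0.18 (SD, n = 3) in knockout mice, with overlapping values. Where these probes lie in the transcripts of the gene was not analysed here.

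**Figure D3:**
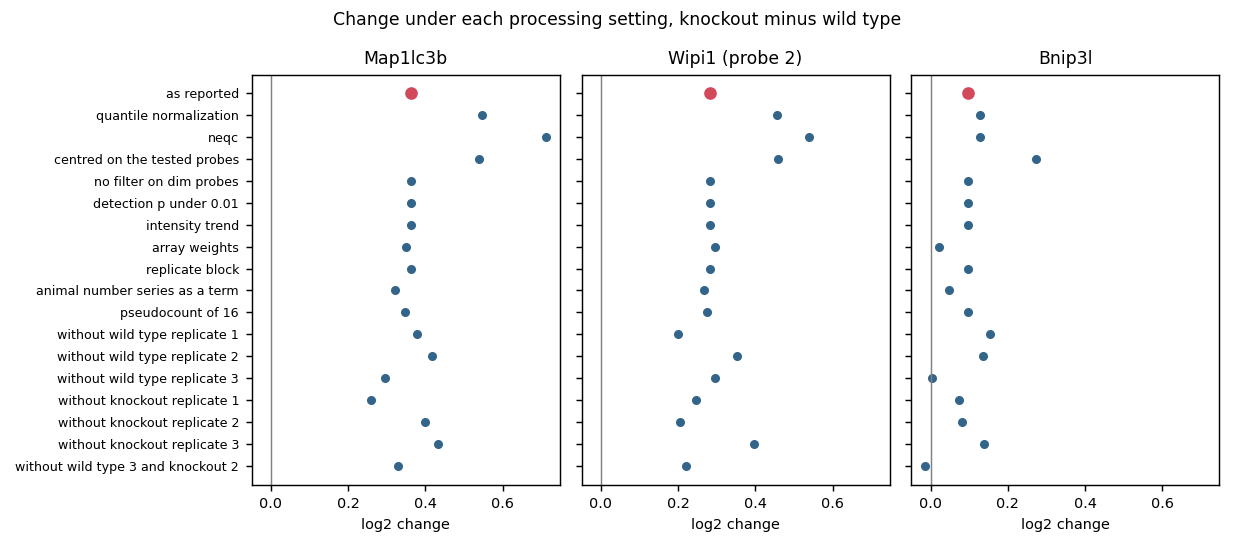
Log2 change, knockout minus wild type, of Map1lc3b, the second Wipi1 probe and Bnip3l as reported (red) and under each of 17 alternative settings (blue). Map1lc3b lies between 0.26 and 0.71, the second Wipi1 probe between 0.20 and 0.54, and Bnip3l between -0.01 and 0.27.

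Across mice, the members' values were highest in knockout replicate 1. Relative to the wild type mean, the mean log2 level of the 8 tested genes, each by its brightest probe, was 0.18, 0.07 and 0.01 in the knockout mice and 0.06, -0.02 and -0.05 in the wild type mice. The lowest knockout mouse thus lay below the highest wild type mouse. Over all tested probes the median stood at -0.09, -0.07 and -0.15 in the knockout mice and -0.05, -0.05 and 0.09 in the wild type mice. Knockout replicate 1 also had the lowest neutrophil (14668) and monocyte (5109) sums and the highest erythroid sum (214570). Wild type replicate 3 and knockout replicate 3 each held the lowest value for 4 of the 12 probes.

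The genes whose levels followed Bnip3l most closely over the 6 arrays, among 11584 others, were Rnf10, Iscu and Eea1, which encode a RING finger protein, a scaffold of iron-sulfur cluster assembly and an early endosome tether. Their root mean square differences from Bnip3l, each gene centred on its own mean, were 0.05 on the log2 scale for each of the 3, beside 0.20 for the median gene. A gene that did not vary over the arrays would stand at 0.11. Gabarapl2 was the nearest of the other members to Bnip3l, at 0.08, and Wipi1 lay at 0.10. The other tested members lay further from Bnip3l than a flat gene would. For Ulk1 the nearest were 2610205L13Rik, Fbxo34, an F-box protein gene, and 4930431B09Rik, at 0.04, 0.05 and 0.05. Among the members Wipi1 was nearest to Ulk1, at 0.13, where a flat gene would stand at 0.16. Likeness over 6 arrays describes these arrays only.

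Other genes of the pathway were followed in 8 lists by role, of which 60 of 69 genes on the array were tested. None passed in limma in either direction. At an unadjusted p under 0.05, 2 of the 60 were higher, beside 1.28% of all tested probes, and 12 were lower, beside 17.6%. The median log2 change was -0.10, close to that over all tested probes. Groups were separate with knockout lower for 14 of the 60 genes, beside 23% of all probes, and with knockout higher for 2, beside 1.98%. In a fit of 4 arrays, chosen after the data were seen, that leaves out the third wild type mouse and the second knockout mouse, 3 of the 97 tested probes of these genes passed, Sqstm1 and Vmp1 as higher and Uvrag as lower, beside 6.5% of all tested probes. In the lists that follow, counts of genes below 0 are to be read beside the 81.0% of all tested probes that lay below 0.

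In the initiation complex, all 3 tested genes had changes below 0, from -0.18 for the second kinase Ulk2 to -0.11, with Atg13 (listed as D2Ertd391e) at -0.13. In the list of PI3 kinase complex genes, 4 of 5 were below 0. Uvrag, a regulatory subunit, read 273, 268 and 346 in wild type and 209, 220.3 and 193 in knockout mice. Its groups did not overlap, and its log2 change of -0.50 (SE 0.12, limma adjusted p = 0.170) had the lowest adjusted p of the 60. Becn1, another subunit and the 1 gene of this list above 0, was at 0.18 (limma adjusted p = 0.333).

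In the conjugation list, all 10 tested genes were below 0, beside 81.0% of all tested probes, with a median of -0.18 beside -0.10 for all. In 4 of the 10 the value was lower at an unadjusted p under 0.05, beside 17.6% of all. Atg5, part of the ligase complex that attaches LC3 and GABARAP proteins, read 309, 319 and 359 in wild type and 263, 265 and 219 in knockout mice. It did not overlap between groups and had a log2 change of -0.40 (SE 0.10, limma adjusted p = 0.180). Atg4d, a protease, was at -0.23 (adjusted p = 0.191), and Atg3, the E2-like enzyme, at -0.39 (adjusted p = 0.238). The difference between these genes and the LC3 and GABARAP members was not tested.

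In phagophore growth, 5 of 7 genes were below 0. Atg9a, a membrane protein of the vesicles that feed the phagophore, read 300.1, 274 and 299 in wild type and 233, 243 and 229 in knockout mice. The groups did not overlap, and the log2 change was -0.31 (SE 0.07, limma adjusted p = 0.180). Atg2a, a lipid transfer protein, was at -0.29 (adjusted p = 0.190) and Atg2b at -0.22 (adjusted p = 0.270).

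Cargo and mitochondrial receptors were mixed, with 4 of 10 above 0 and a median of -0.02. Tax1bp1, a cargo receptor, read 1906, 1801 and 1803 in wild type and 2465, 2159 and 2078 in knockout mice, without overlap, a log2 change of 0.28 (SE 0.09, limma adjusted p = 0.189). Fundc1, a mitophagy receptor of the outer membrane, was at -0.41 (adjusted p = 0.244) and Calcoco1 at -0.21 (adjusted p = 0.307). Bnip3, the close relative of Bnip3l, was on the array but was not detected on 3 arrays and so was not tested. Neither were the parkin gene, listed as Park2, and Calcoco2.

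Of the fusion and lysosome genes 2 of 9 lay above 0, and the median was -0.02. The lysosomal protease Ctsb read 8004, 8438 and 7772 in wild type and 9807, 8847 and 8875 in knockout mice, without overlap, a log2 change of 0.18 (SE 0.08, limma adjusted p = 0.262). The lysosomal membrane genes Lamp2 and Lamp1 were at -0.41 and -0.33 (adjusted p = 0.342 and 0.349). Among upstream regulators, at a median of -0.04, 4 of 8 lay above 0, with Foxo3, a transcription factor with autophagy targets, at 0.20 (adjusted p = 0.300).

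Of the genes for the mitochondrial outer membrane and protein import, 6 of 8 lay below 0, beside 81.0% of all tested probes, at a median of -0.18. In 4 of the 8 the groups were separate with knockout lower, beside 23% of all. Timm50, a subunit of the inner membrane import channel, read 435, 403 and 429 in wild type and 345, 364 and 347 in knockout mice. Its log2 change was -0.26 (SE 0.07, limma adjusted p = 0.180). Tomm40, the outer membrane pore, was at -0.29 (adjusted p = 0.219) and Timm44, part of the import motor, at -0.26 (adjusted p = 0.225).

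**Figure D4:**
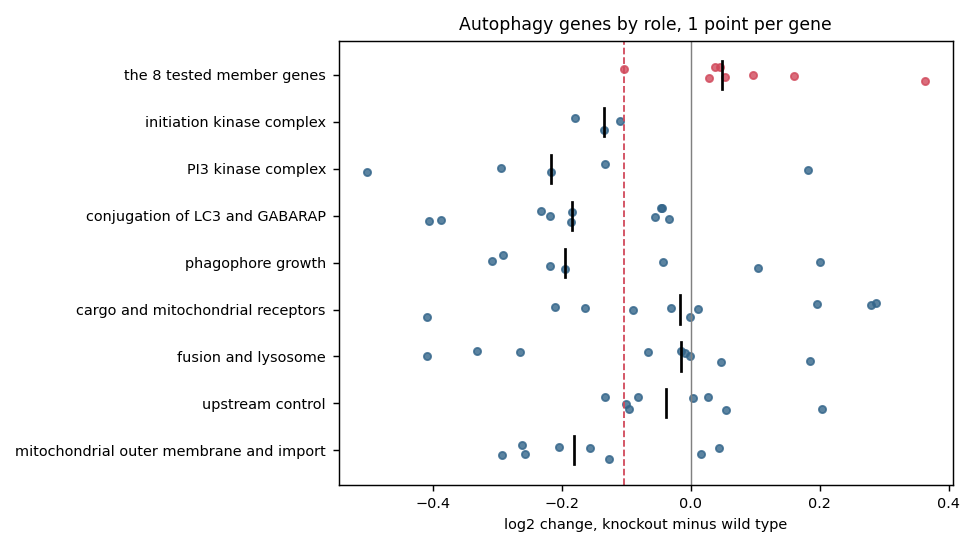
Log2 change, knockout minus wild type, of the 8 tested member genes (red, brightest probe each) and of the other tested autophagy genes by role (blue), with the median of each row as a bar and the median of all tested probes, -0.10, as the dashed line. Of the member genes 7 lie above 0, and all 10 genes of the conjugation row lie below 0, beside 81.0% of all tested probes.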

How the data were processed

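Each array came, per the file headers, with an average signal and a detection p-value per probe, both used as deposited. Signals are intensity values on a linear scale that the authors' table calls normalized; scanner software and normalization method are not given in the sources used here. The series' other table of deposited intensities held the same values in all 45281 probes. Background had not been subtracted, since undetected probes had a median signal of 86.7 to 89.5 on the arrays. RNA was taken up in Trizol and labelled with an Illumina TotalPrep kit, per the labels' protocols. Here 2 lines without values were dropped and intensities were put on a log2 scale. A probe entered the fit when at least 3 of 6 arrays detected it (detection p under 0.05). Knockout minus wild type was fitted in limma 3.58.1 (R 4.3.3) by lmFit followed by eBayes, as a two-sided test. The p-values of all 15743 tested probes were adjusted together by Benjamini-Hochberg, and an adjusted p under 0.05 passed. The fit was tried on simulated data with independent noise and no shift between arrays, which checks the code and not these arrays. A gene was represented in lists by its brightest tested probe, and older symbols were joined to current ones through RefSeq. All members are named, and up to 3 genes of smallest unadjusted p per list. The members and lists were chosen with earlier results of these data known. Each group's 3 mice are biological replicates by the series' own design text, and the number of arrays limits the precision. Equal replicate numbers were not taken to pair the mice: deviations of same-numbered arrays correlated at 0.22, -0.28 and -0.19 across probes, and those of the other wild type and knockout arrays at -0.28 to 0.34. Alternatives were other normalizations, filters, variance models, terms and left-out mice.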

Additional observations from a re-analysis of the deposited data

How the results depend on the processing

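The count of 0 member probes past the threshold held in all 18 alternatives run, with 1 to 5 of 12 higher and 0 lower at an unadjusted limma p under 0.05. That of 0 among the other autophagy probes held in all but 1. The pair of arrays with the lowest weights, wild type replicate 3 (0.364) and knockout replicate 2 (0.549), was also left out, an alternative chosen after seeing the data. Then 3 of 97 passed, beside 6.5% of all tested probes: Sqstm1 (0.49) and Tmem49, now Vmp1 (0.41), as higher and Uvrag (-0.43) as lower; Sqstm1 and Vmp1 were named after their values were seen. The median change of the member probes, 0.04, moved to 0.15 with quantile normalization, 0.23 with neqc and 0.22 with centring on the tested probes, and spanned -0.02 to 0.10 over the left-out mice; the median of all probes was 0.01, 0.02 and 0.07 under those 3 scalings. The count over all tested probes, 14, all lower, was 33 (7 higher, 26 lower) with neqc, 44 (13 higher, 31 lower) with centring, 130 with an intensity trend, 190 with array weights, 5 with the replicate block, 8 with a term for the series of animal numbers (900s or 1100s), 46 at an adjusted p under 0.1 and 1023 without that pair of arrays; quantile normalization gave 4 higher and 10 lower. Over the left-out mice it spanned 8 (wild type replicate 3, knockout replicate 1 or knockout replicate 3 out) to 187 (knockout replicate 2 out), and was 44 with wild type replicate 2 out. The replicate block ended no member's call, as none had passed; under it Map1lc3b stayed at 0.36 with a limma adjusted p of 0.403. Map1lc3b, the brighter Gabarapl2 probe and the second Wipi1 probe kept their sign in all 17 alternatives, while changes near 0 turned. Quantile normalization, neqc and centring gave 0.0652, 0.0748 and 0.0814 for the second Ulk1 probe and 0.130, 0.226 and 0.135 for the third Wipi1 probe; centring gave 0.0716 for Atg7. Array weights gave -0.0109 for Gabarapl1, -0.0248 for the dimmer Gabarapl2 probe and 0.0068 for the third Wipi1 probe; the animal number term gave -0.0428 and -0.0226 for the first 2 of these. Without the pair of arrays the values were -0.0136 for Bnip3l, -0.0200 for Gabarapl1 and -0.0259 for the dimmer Gabarapl2 probe. Over the left-out mice, Gabarap spanned -0.0311 to 0.104, Gabarapl1 -0.0567 to 0.109, the dimmer Gabarapl2 probe -0.0722 to 0.0533, the brighter Ulk1 probe -0.0722 to 0.192, the second Ulk1 probe -0.202 to 0.0143, the brightest Wipi1 probe -0.0185 to 0.0976 and the third Wipi1 probe -0.168 to 0.0394. The cause was not tested. Atg7, Atg4a and the dimmer Gabarapl2 probe lie close to the background signal, which limits the change they can show. The same limit holds for Ulk2, at a mean of 119 in wild type and 105 in knockout mice, Atg13, at 140 and 128, and Atg4d, at 154 and 131. Since background was not subtracted, it also makes the changes of other dim probes smaller.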
